A study of Mus musculus with 8 samples.

Results

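Cyclic nucleotide phosphodiesterases are the enzymes that break down cAMP and cGMP, and 9 of their genes were followed through the cell types of mouse prefrontal cortex (PFC) and striatum: *Pde1a*, *Pde1b*, *Pde1c*, *Pde2a*, *Pde4b*, *Pde4d*, *Pde7b*, *Pde8b*, and *Pde10a*. They were picked by their symbols among the 31053 genes counted, and 15 other PDE genes served as a comparison list. The libraries were single-cell RNA sequencing libraries on the 10x Chromium platform, 2 from wild-type (WT) and 2 from *Setd1a*+/- mice in each tissue, 8 in all. *Setd1a*+/- mice carry on 1 allele a frameshift of 8 bases in exon 15 of *Setd1a*, which encodes a histone H3K4 methyltransferase, in the strain C57BL/6N after backcrossing, and the WT mice were their littermates. All mice were male and untreated, 8 to 10 weeks old by the labels (the methods of the study give an older age), and each library held the dissociated tissue of 2 pooled mice. The striatum took in its dorsal and ventral parts, although the labels call it NAc.

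The second messengers cAMP and cGMP are made by adenylyl and guanylyl cyclases, act through protein kinases A and G, ion channels, and exchange factors, and are removed by phosphodiesterases. The PDE1 enzymes hydrolyze both and are switched on by calcium and calmodulin, PDE2 hydrolyzes both and is stimulated by cGMP, PDE4, PDE7, and PDE8 act on cAMP, and PDE10 acts on both. In the striatum, medium spiny neurons (MSNs) with the dopamine receptor D1 raise cAMP when dopamine binds and those with the receptor D2 lower it, and PDE10A and PDE1B are well known as enzymes of these neurons.

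The authors annotated 8997 PFC cells in 8 types, with 2775 excitatory neurons divided into 7 subtypes, and 14690 striatal cells in 10 types. A library held 15154268 to 26277553 UMIs (unique molecular identifiers, each a counted RNA molecule), and its median annotated cell 2302.5 to 3042. Any pair of libraries had 1 to 24 cell barcodes in common. The marker genes of each type were highest in the type they mark, except that *Gad2* and *Pvalb*, 2 of the 7 interneuron markers, were highest in D1 MSNs and newly formed oligodendrocytes of the striatum. Among the genes that name the excitatory subtypes, *Cux2* was highest in SL-Myh7 and *Etv1* in DL-Tshz2 (SL, superficial layer; DL, deep layer). The level of *Setd1a* itself was 8.45 and 11.2 CPM (the counts of a gene per 1000000 UMIs of the same cells) in WT and 5.59 and 9.33 CPM in *Setd1a*+/- PFC, and at 13.4 and 15.2 CPM in WT against 9.16 and 12.5 CPM in *Setd1a*+/- striatum. The genotypes overlapped in the PFC and did not in the striatum, and the log2 FC was −0.39 (SE 0.43) and −0.38 (SE 0.28), with FDRs of 1.0 in edgeR. By the study's methods a biological replicate took in both a WT and a mutant sample, and within each replicate number *Setd1a* was lower in the *Setd1a*+/- library, in both tissues. With the replicate number as a block the log2 FC was −0.42 (SE 0.32) in the PFC and −0.39 (SE 0.27) in the striatum, and neither was called. An allele with a frameshift can still be transcribed, and *Setd1a* shares 3523 exonic bases with the counted gene *Gm49388*, so these levels are a weak check of the genotype labels.

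The 9 genes lie on 8 chromosomes of GRCm38, the build called mm10 in the submitters' processing notes. *Pde4d* spans 1503514 bases on the plus strand (chr13:108449948-109953461), *Pde4b* 519717 bases (chr4:102087543-102607259, plus strand), and *Pde10a* 461277 bases (chr17:8525372-8986648, plus strand). *Pde1b* is the shortest at 27019 bases (chr15:103503034-103530052, plus strand). *Pde1a* (chr2:79834453-80129458), *Pde1c* (chr6:56069804-56569103), *Pde7b* (chr10:20398004-20725078), and *Pde8b* (chr13:95024454-95250336) are on the minus strand, and *Pde2a* (chr7:101421691-101512827) is on the plus strand. *Pde2a* shares 3955 of its 6149 exonic bases with *Gm45837*, a counted gene on the same strand, so its counts are uncertain. *Pde8b* shares 447 exonic bases with *Gm48420* on the opposite strand.

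Promoter windows of 3 of the 4 genes whose highest mean below is in MSNs are shown, chosen after their values were seen, because their start sites differ in CpG content. The 3 windows of the other gene, *Pde1c*, held 4, 5, and 11 CpGs. The windows run from 250 bases before to 50 after a RefSeq start site on GRCm38.p6, 5′ to 3′ on the gene's strand, with every CG dinucleotide in capitals. The first is the *Pde7b* start at chr10:20548279-20548578 (minus strand, 10 CpGs). The next ones are the 2 *Pde10a* starts of the table, at chr17:8801495-8801794 (plus strand, 23 CpGs) and chr17:8849735-8850034 (plus strand, 5 CpGs), and the 5′-most *Pde1b* start at chr15:103502784-103503083 (plus strand, 28 CpGs). The 2 further *Pde1b* starts, which are not shown, held 1 and 2 CpGs.
Pde7b: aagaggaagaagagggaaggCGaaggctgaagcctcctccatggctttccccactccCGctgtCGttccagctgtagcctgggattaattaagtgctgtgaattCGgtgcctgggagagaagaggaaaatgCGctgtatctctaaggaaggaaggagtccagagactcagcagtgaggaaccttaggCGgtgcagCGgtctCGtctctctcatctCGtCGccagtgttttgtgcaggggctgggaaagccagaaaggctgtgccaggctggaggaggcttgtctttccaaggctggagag
Pde10a, upstream start: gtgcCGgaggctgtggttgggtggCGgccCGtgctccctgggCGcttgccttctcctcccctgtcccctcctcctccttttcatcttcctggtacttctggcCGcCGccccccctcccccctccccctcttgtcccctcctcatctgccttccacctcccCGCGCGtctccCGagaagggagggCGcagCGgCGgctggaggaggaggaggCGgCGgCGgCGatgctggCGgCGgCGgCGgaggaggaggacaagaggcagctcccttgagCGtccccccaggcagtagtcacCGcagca
Pde10a, downstream start: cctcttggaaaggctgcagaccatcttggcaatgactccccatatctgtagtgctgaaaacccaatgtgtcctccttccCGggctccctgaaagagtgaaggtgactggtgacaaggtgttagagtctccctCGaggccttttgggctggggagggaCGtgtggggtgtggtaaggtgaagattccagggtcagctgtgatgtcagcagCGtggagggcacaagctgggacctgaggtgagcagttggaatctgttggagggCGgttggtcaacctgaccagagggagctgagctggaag
Pde1b: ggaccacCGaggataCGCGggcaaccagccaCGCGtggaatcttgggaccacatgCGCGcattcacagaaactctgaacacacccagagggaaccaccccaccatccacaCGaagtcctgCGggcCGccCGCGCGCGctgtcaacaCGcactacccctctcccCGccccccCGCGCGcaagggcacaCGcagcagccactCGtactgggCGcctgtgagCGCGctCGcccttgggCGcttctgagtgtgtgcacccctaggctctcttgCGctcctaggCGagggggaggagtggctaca
In all, 28 windows were found for the 9 genes among 32851 windows, with a median of 6 CpGs against 7 over all windows. The full cAMP response element TGACGTCA was in 0 of the 28 and in 1.79% of all windows. Its shorter form TGACG, searched on both strands and contained in the full element, was in 4 of the 28 (14.3%) and in 20.8% of all windows, in 1 window each of *Pde1a*, *Pde2a*, *Pde4b*, and *Pde8b*. The libraries count the 3′ ends of transcripts and do not show which start was used.

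For each library the UMIs of all cells of one type were added up and expressed as CPM. Each gene had its own order of cell types, and over the cell types of both tissues the highest mean of *Pde1b*, *Pde1c*, *Pde7b*, and *Pde10a* was in MSNs, that of *Pde1a* in PFC excitatory neurons, that of *Pde4b* in PFC oligodendrocytes, that of *Pde2a* and *Pde4d* in PFC endothelial cells, and that of *Pde8b* in striatal endothelial cells. The map of mean CPM shows this for all 25 groups of cells. Levels are compared within a gene, never between genes, since 3′ counts do not rank genes. Free RNA, read from barcodes of 2 to 50 UMIs, is given beside the levels as the CPM that a droplet of free RNA alone would have. A mean at or under that value does not by itself show whether the cells express the gene. A cell without the gene's RNA would reach it only in a droplet filled with free RNA. Other types of the same libraries can lie far below it, as striatal oligodendrocytes did at 12.0 to 62.9 CPM of *Pde1b*. How much free RNA a cell's droplet held was not estimated.

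**Figure D1:**
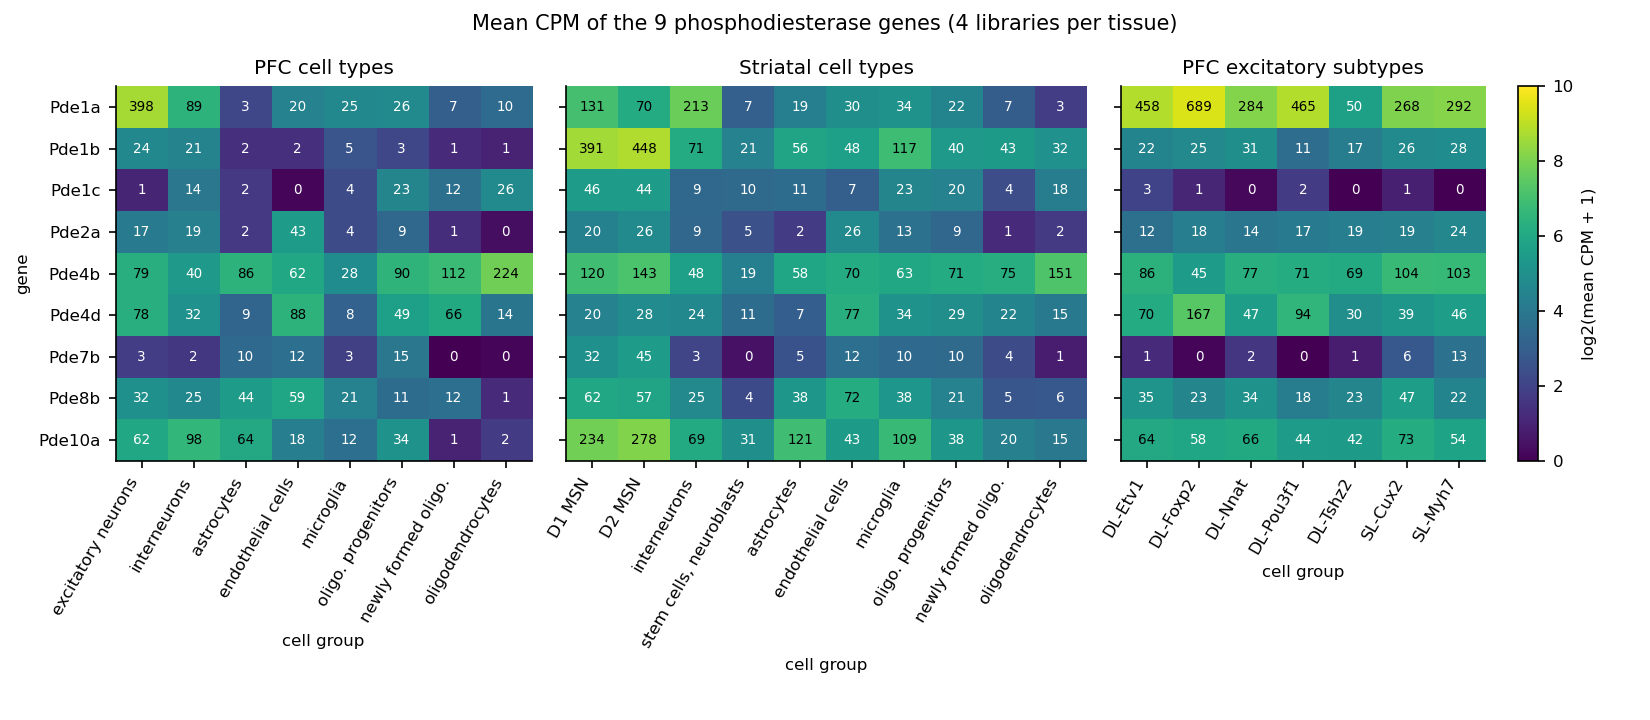
Mean CPM of each gene (rows) in each cell type of PFC and striatum and in each PFC excitatory subtype (columns), over 4 libraries; color is log2(mean CPM + 1) and the printed number is the mean CPM. *Pde1b* and *Pde10a* stand out in D1 and D2 MSNs, at 391 and 234 CPM and at 448 and 278 CPM, *Pde1a* in excitatory neurons at 398 CPM, and *Pde4b* in PFC oligodendrocytes at 224 CPM.

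*Pde1a*, a calcium-dependent enzyme, was highest in neurons of both tissues. In PFC excitatory neurons it was at 461 and 375 CPM in WT against 450.1 and 306 CPM in *Setd1a*+/- mice (398 ± 72.2, mean ± SD, n = 4 libraries), and in PFC interneurons at 88.5 ± 21.7 CPM. In the striatum it was highest in interneurons, at 243 and 225 CPM in WT against 211 and 173 CPM in *Setd1a*+/- mice, followed by D1 MSNs (131 ± 18.5 CPM) and D2 MSNs (70.1 ± 3.61 CPM). The 4 libraries of each of these striatal classes lay apart from those of the next, in this order. A UMI of *Pde1a* was found in 73.6% of PFC excitatory neurons (95% Wilson interval 71.9 to 75.2%, median 6546 UMIs per cell) against 0.722% of PFC astrocytes (0.281 to 1.84%, median 2026 UMIs). After each cell was thinned to 1000 UMIs, these shares were 29.8% and 0.181%. Free RNA held 191 to 253 CPM of *Pde1a* in the PFC, under excitatory neurons and over interneurons, and 61.1 to 79.0 CPM in the striatum, a range in which the D2 MSN mean lies and which D1 MSNs and interneurons exceed.

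Among the excitatory subtypes, *Pde1a* was highest in DL-Foxp2, the *Foxp2* neurons of the deepest layer, at 806 and 627 CPM in WT against 749 and 575 CPM in *Setd1a*+/- mice (689 ± 107). DL-Pou3f1 (465 ± 109.6 CPM, from 62 cells in all) and DL-Etv1 (458 ± 75.8) followed. After them came SL-Myh7 (292 ± 85.6), DL-Nnat (284 ± 25.8), and SL-Cux2 (268 ± 66.1). Along this list each subtype overlapped the one after it over the libraries. DL-Tshz2 stood apart below all of them, at 66.2 and 34.2 CPM in WT against 67.0 and 33.0 CPM in *Setd1a*+/- mice. Its mean was 5.36-fold under that of SL-Cux2, and it was lower in each of the 4 libraries.

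*Pde1b*, the calcium-dependent enzyme of the striatum, was at 405 and 517 CPM in WT against 415 and 455 CPM in *Setd1a*+/- D2 MSNs (448 ± 50.9, n = 4). In D1 MSNs it was at 381, 395, 345, and 441 CPM in the same order of libraries (391 ± 39.9), which overlaps D2 MSNs. Striatal interneurons held 70.7 ± 6.89 CPM, PFC excitatory neurons 24.3 ± 8.04, and PFC interneurons 21.4 ± 10.4. The PFC glia and endothelial cells were at 5.24 CPM or less. A UMI was found in 72.5% of D2 MSNs (70.7 to 74.2%, median 3422 UMIs) and 60.5% of D1 MSNs (59.0 to 62%, median 3167 UMIs), against 4.48% of striatal oligodendrocytes (3.71 to 5.39%, median 2076 UMIs). Thinned to 1000 UMIs, the shares were 36.7, 28.5, and 1.96%. The free RNA ran from 400 to 553 CPM over the striatal libraries and from 6.43 to 38.1 CPM over those of the PFC. No type's mean lay above the whole range of its tissue, and the mean of D1 MSNs lay just under that of the striatum. Within their own libraries, D2 MSNs were above free RNA in WT (400 and 434 CPM) and *Setd1a*+/- replicate 1 (405 CPM). They were below it in *Setd1a*+/- replicate 2 (553 CPM), and D1 MSNs were below it in each library. The PFC types were not compared library by library.

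*Pde1c*, the third enzyme of the family, was at 36.7 and 42.6 CPM in WT against 61.4 and 41.5 CPM in *Setd1a*+/- D1 MSNs (45.6 ± 10.9), and at 44.4 ± 11.6 CPM in D2 MSNs. Outside MSNs its highest striatal mean was in microglia (22.7 ± 9.23 CPM, from 16 UMIs), where barcodes that hold free RNA had 17.7 to 26.2 CPM. Striatal newly formed oligodendrocytes were the lowest striatal type at 4.15 CPM, from 3 UMIs. In the PFC, where free RNA held 1.94 to 7.15 CPM, it was found in the oligodendrocyte lineage and in interneurons (14.5 ± 6.11 CPM). PFC oligodendrocytes held 40.0 and 19.7 CPM in WT against 24.2 and 18.6 CPM in *Setd1a*+/- mice, progenitors 22.7 ± 7.62 CPM in the PFC and 20.4 ± 7.60 CPM in the striatum, PFC newly formed oligodendrocytes 12.0 ± 2.60 CPM, and striatal oligodendrocytes 18.0 ± 1.23 CPM. The striatal means of progenitors and oligodendrocytes lay within the range of free RNA. In PFC excitatory neurons it was at 1.05 ± 0.815 CPM, from 24 UMIs, and in PFC endothelial cells 1 UMI was counted. The subtypes DL-Tshz2 (0 of 304 cells) and SL-Myh7 (0 of 194 cells) had no UMI of it, which allows up to 0.987% and 1.55% of cells with a UMI and sets no limit on cells expressing the gene.

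*Pde10a*, which hydrolyzes both cyclic nucleotides, was at 253 and 288 CPM in WT against 319 and 252 CPM in *Setd1a*+/- D2 MSNs (278 ± 32.0), and at 244, 229, 230.3, and 235 CPM in D1 MSNs (234 ± 6.69). Each D2 library was above each D1 library. A UMI was found in 54.0% of D2 MSNs (52 to 56.0%) and 44.5% of D1 MSNs (43.0 to 46.1%), against 2.47% of striatal oligodendrocytes (1.92 to 3.18%). Thinned to 1000 UMIs, the shares were 22.8, 19.3, and 1.24%. Both MSN means lay above the free RNA of the striatum (139 to 180 CPM), as the mean of no other striatal type did. Striatal astrocytes were above the free RNA of their own library in WT replicate 1, at 209 against 139 CPM, and below it in the other striatal libraries. In the PFC it was at 97.7 ± 24.9 CPM in interneurons and 61.6 ± 13.8 CPM in excitatory neurons. Astrocytes varied widely between libraries in both tissues, and their values are given with the genotypes below.

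*Pde2a*, which cGMP stimulates, was highest in PFC endothelial cells, at 30.1 and 41.1 CPM in WT against 51.8 and 50.7 CPM in *Setd1a*+/- mice (43.4 ± 10.1). These lay above PFC interneurons (19.4 ± 1.01) and excitatory neurons (16.8 ± 3.23) in each library. In the striatum D2 MSNs (25.9 ± 8.25), endothelial cells (25.6 ± 4.75), and D1 MSNs (20.1 ± 4.52) overlapped. Oligodendrocytes held 0.308 CPM in the PFC and 2.24 CPM in the striatum. Free RNA held 3.58 to 7.15 CPM in the PFC and 6.83 to 12.2 CPM in the striatum.

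Of the genes for cAMP-specific enzymes, *Pde4b* had its highest mean in oligodendrocytes of the PFC. It was at 238 and 201 CPM in WT against 273 and 184 CPM in *Setd1a*+/- PFC oligodendrocytes (224 ± 39.6), above newly formed oligodendrocytes (112 ± 35.2) in each library, and at 89.7 ± 26.1 CPM in their progenitors. In the striatum oligodendrocytes (151 ± 18.6 CPM), D2 MSNs (143 ± 13.3), and D1 MSNs (120.2 ± 17.5) overlapped each with the next. Neural stem cells and neuroblasts were lowest at 19.0 ± 8.03 CPM. Free RNA held 49.7 to 63.7 CPM in the PFC and 73.3 to 87.9 CPM in the striatum, under the oligodendrocytes of both tissues and both MSN classes. Among the excitatory subtypes it ran from 104 ± 18.2 CPM in SL-Cux2 and 103 ± 29.7 CPM in SL-Myh7 to 45.1 ± 8.19 CPM in DL-Foxp2, the subtype where *Pde1a* was highest.

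*Pde4d* was highest in endothelial cells of both tissues, with PFC excitatory neurons and newly formed oligodendrocytes overlapping those of the PFC. It was at 87.7 and 78.2 CPM in WT against 126 and 60.3 CPM in *Setd1a*+/- endothelial cells (88.1 ± 27.8), at 78.4 ± 24.8 CPM in excitatory neurons, and at 66.3 ± 23.1 CPM in newly formed oligodendrocytes. Oligodendrocyte progenitors followed at 49.5 ± 11.8 CPM, and PFC interneurons, at 32.3 ± 3.56 CPM, lay below them in each library. Among the subtypes DL-Foxp2 was highest, at 165 and 126 CPM in WT against 248 and 131 CPM in *Setd1a*+/- mice (167 ± 56.4). DL-Pou3f1 (94.5 ± 97.8, from 62 cells in all) followed and overlapped both DL-Foxp2 and DL-Etv1 (69.7 ± 14.3). DL-Tshz2 was lowest at 29.8 ± 6.70 CPM. In the striatum endothelial cells held 77.0 ± 18.8 CPM, and D2 and D1 MSNs 27.6 ± 7.84 and 20.5 ± 6.18 CPM. Free RNA held 19.4 to 35.9 CPM in the PFC, a range in which the interneuron mean lies, and 9.88 to 14.2 CPM in the striatum.

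*Pde7b* was at 43.4 and 40.7 CPM in WT against 68.0 and 27.6 CPM in *Setd1a*+/- D2 MSNs (44.9 ± 16.9), and at 33.8, 28.8, 42.5, and 22.4 CPM in D1 MSNs (31.9 ± 8.47). D1 MSNs lay above striatal endothelial cells (11.6 ± 1.09 CPM) in each library, and striatal interneurons held 3.27 ± 1.36 CPM. Free RNA held 6.91 to 26.2 CPM in the striatum, under both MSN means and not under that of endothelial cells, and 0.645 to 3.18 CPM in the PFC. In the PFC oligodendrocyte progenitors had 28.5 and 11.7 CPM in WT against 7.90 and 10.7 CPM in *Setd1a*+/- mice, endothelial cells 11.5 ± 2.92 CPM, and excitatory neurons 2.55 ± 2.18 CPM. Within excitatory neurons the 2 superficial subtypes SL-Myh7 (12.6 ± 10.4 CPM) and SL-Cux2 (5.81 ± 5.32 CPM) were highest, and the deep subtypes held 1.96 CPM or less. No UMI was found in 295 newly formed oligodendrocytes or 62 DL-Pou3f1 neurons, which allows up to 1.02% and 4.84% of cells with a UMI and sets no limit on cells expressing the gene.

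*Pde8b* was at 61.0 and 78.9 CPM in WT against 76.6 and 72.8 CPM in *Setd1a*+/- striatal endothelial cells (72.3 ± 7.96), and at 58.6, 61.0, 65.4, and 50.7 CPM in PFC endothelial cells (58.9 ± 6.17). D1 MSNs (61.6 ± 4.87 CPM) and D2 MSNs (56.8 ± 7.98 CPM) overlapped the striatal endothelial cells, and astrocytes held 44.3 ± 15.2 CPM in the PFC and 38.4 ± 6.94 CPM in the striatum. Oligodendrocytes were at 1.30 ± 1.04 CPM in the PFC and 5.70 ± 4.76 CPM in the striatum, lower than their progenitors in each library of both tissues. SL-Cux2 was the highest excitatory subtype at 47.3 ± 10.4 CPM. Free RNA held 48.6 to 62.8 CPM in the striatum, a range in which both MSN means lie and which endothelial cells exceed, and 23.5 to 35.5 CPM in the PFC, under endothelial cells and astrocytes.

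For each gene the genes with the most similar log2(CPM + 1) were searched over the 25 groups, which share their libraries, among 11566 genes that reached 20 CPM in a group. *Pde1b* was close to *Gnal* (r = 0.91), the G protein that couples the dopamine receptor D1 to adenylyl cyclase in the striatum. *Gnal* was at 26.4 to 61.2 CPM in striatal against 0 to 3.98 CPM in PFC endothelial cells. The part of MSN RNA in other striatal types in this r, and in those that follow, was not tested. *Pde10a* was closest to *Ripor2* (r = 0.88) and *Rab36* (r = 0.88), and *Pde7b* to *Dach1* (r = 0.76) and *Cbr3* (r = 0.74). *Pde1a* was close to *Pip5k1c* (r = 0.95), *Pde1c* to *Tac1*, the substance P precursor of D1 MSNs (r = 0.85), and *Stk32a* (r = 0.83), and *Pde2a* to *Plk2* (r = 0.98) and *Mcf2l* (r = 0.93). *Pde1c* itself had similar means in D1 and D2 MSNs (45.6 and 44.4 CPM). *Pde4b* was closest to *Slc20a2* and *Snx15* (r = 0.76 for both), *Pde4d* to *Ulk1* (r = 0.83) and *Mtmr12* (r = 0.81), and *Pde8b* to *Arhgef17* (r = 0.86) and *Per1* (r = 0.84), a clock gene. Within the 9 genes the highest r was 0.75, between *Pde1b* and *Pde10a*, and the lowest −0.39, between *Pde1a* and *Pde1c*. The 7 excitatory subtypes hold the cells of the excitatory neurons again, so the groups are not independent. These coefficients describe the groups and were not tested.

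Differences between neuron classes were tested on the summed UMIs with edgeR's quasi-likelihood test and a term for each library, so that both classes of a library were compared. Genes with an FDR below 0.05 and over 2-fold apart were called. The authors formed the classes from the expression of these same cells, so the tests set the size of a difference against its spread over libraries and say nothing on whether the classes exist.

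MSNs had more of most of the 9 genes than striatal interneurons did. Of 10650 genes tested, 770 (7.23%) were called higher and 1029 (9.66%) lower in MSNs, and of the 9 PDE genes 7 were called higher and 0 lower. *Pde7b* had a log2 FC of 3.56 (SE 0.23, FDR 4.83e-11), *Pde1b* of 2.63 (SE 0.07, FDR 1.03e-17), *Pde1c* of 2.26 (SE 0.18), *Pde10a* of 2.00 (SE 0.11), *Pde4b* of 1.47 (SE 0.10), *Pde2a* of 1.35 (SE 0.20), and *Pde8b* of 1.32 (SE 0.14). *Pde7b* had 14 UMIs in striatal interneurons, where 1 of 4 libraries reached the level set by the filter on low counts, so it entered the test through the MSN libraries and its fold is imprecise. In the other 6 all libraries of both classes reached that level. *Pde1a* went the other way, −0.94 (SE 0.08, FDR 1.34e-09), which is just under 2-fold and was called at −1.01 with library size alone as the scaling. *Pde4d* had a log2 FC of 0.01 (SE 0.17), which was −0.06 under that scaling.

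The rest of the pathway was split in this comparison, where the median of all genes tested was 0.01. Of 6 adenylyl cyclases tested, 2 were called higher and 3 lower (list median −0.73), with *Adcy5*, the main cyclase of the striatum, at 2.93, *Adcy1* at −2.84, and *Adcy2* at −2.30. Of 10 G proteins 3 were higher and 1 lower (median −0.47), with *Gng7* at 3.06, *Gnal* at 1.75, and *Gnas* at −1.83. Of 13 targets and scaffolds of protein kinase A, 5 were higher and 3 lower (median 0.01), with *Ppp1r1b* (DARPP-32) at 4.23, *Arpp21* at 3.13, and *Akap12* at −3.53. Of 4 guanylyl cyclases 2 were higher, *Gucy1a1* at 1.75 and *Gucy1b1* at 1.12 (median 0.65), and of 9 effectors 1 was higher, *Prkar2b* at 1.18, and 1 was lower, *Hcn3* at −1.36 (median −0.34). Of 6 other PDE genes, *Pde6a* was called higher at 1.15 and *Pde3a* lower at −5.49 (median −0.01). *Akap12*, *Pde3a*, and *Pde6a* reached the filter's level in only 1 of the classes, so that their folds are imprecise.

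Between D1 and D2 MSNs the differences were small and precise. None of the 9 genes passed 2-fold, where 199 of 10425 genes (1.91%) did, and 6 of them had an FDR under 0.05, where 1350 of 10425 (12.9%) did. *Pde1a* was higher in D1 MSNs, with a log2 FC of 0.81 (SE 0.07, FDR 3.77e-25). The other 5 were higher in D2 MSNs: *Pde7b* at −0.54 (SE 0.11, FDR 2.11e-05), *Pde4d* at −0.42 (SE 0.14, FDR 0.0184), *Pde4b* at −0.34 (SE 0.06, FDR 4.23e-06), *Pde10a* at −0.30 (SE 0.05, FDR 1.77e-08), and *Pde1b* at −0.27 (SE 0.04, FDR 1.38e-10) on the log2 scale of D1 over D2. *Pde2a* at −0.35 (SE 0.14, FDR 0.0742), *Pde1c* at −0.06 (SE 0.10), and *Pde8b* at 0.02 (SE 0.09) did not pass, and the last 2 changed sign when a library was left out. DESeq2 also called 0 of the 9 past 2-fold. In the rest of the pathway *Adcy2* was higher in D1 MSNs at 2.91, with 14 UMIs in D2 MSNs and none of their libraries at the filter's level, and *Gucy1a1* at −1.81 and *Gnas* at −1.19 were higher in D2 MSNs. No gene was called among 5 other PDE genes, 10 effectors, and 11 kinase targets and scaffolds tested. List medians ran from −0.41 for guanylyl cyclases to 0.11 for effectors, with all genes at 0.00.

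PFC excitatory neurons and interneurons differed in 3 of 8 PDE genes tested, where 1699 of 10354 genes (16.4%) were called. *Pde1a* (log2 FC 2.11, SE 0.12, FDR 3.72e-22) and *Pde4d* (1.28, SE 0.19, FDR 2.15e-07) were higher in excitatory neurons, and *Pde1c* (−3.48, SE 0.59, FDR 2.65e-06) was higher in interneurons. *Pde1c* had 24 UMIs in excitatory neurons and 22 in interneurons and reached the filter's level in the interneuron libraries alone, so that it could be tested only through the class where it is high and its fold is imprecise. *Pde4b* was at 0.98 (SE 0.18, FDR 1.23e-05), under 2-fold, and was called at 1.08 without a filter on low counts, at 1.08 without *Setd1a*+/- replicate 1, and at 1.1 without *Setd1a*+/- replicate 2. *Pde10a* was higher in interneurons by less than 2-fold (−0.66, SE 0.15, FDR 0.000199). *Pde1b*, *Pde2a*, and *Pde8b* did not pass, with log2 FCs of 0.23 (SE 0.27), −0.22 (SE 0.29), and 0.33 (SE 0.24), and *Pde7b* was too low to test.

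Of 7 other PDE genes tested in the same comparison none was called higher in excitatory neurons (median −0.66, all genes 0.01). *Pde11a* (−7.52) and *Pde5a* (−4.52) were called higher in interneurons. Both had few UMIs in excitatory neurons (2 and 12) and entered the test through the interneuron libraries. Of 5 guanylyl cyclases 3 were higher in excitatory neurons (median 1.02), *Gucy2g* at 1.59, *Gucy1b1* at 1.17, and *Gucy1a1* at 1.02. Of 13 kinase targets and scaffolds 4 were higher and 1 lower (median 0.44), with *Arpp21* at 4.36, *Ppp1r1b* at 4.22 (from 3 UMIs in interneurons), and *Arpp19* at 2.80. Of 8 effectors 2 were higher in interneurons, *Rapgef4* at −1.17 and *Hcn3* at −1.12 (median 0.11). Of 7 adenylyl cyclases *Adcy9* was called at 1.57 and *Adcy8* at −1.07 (median 0.35), and of 10 G proteins *Gnaz* at 1.42 and *Gng7* at −1.94 (median 0.00).

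**Figure D2:**
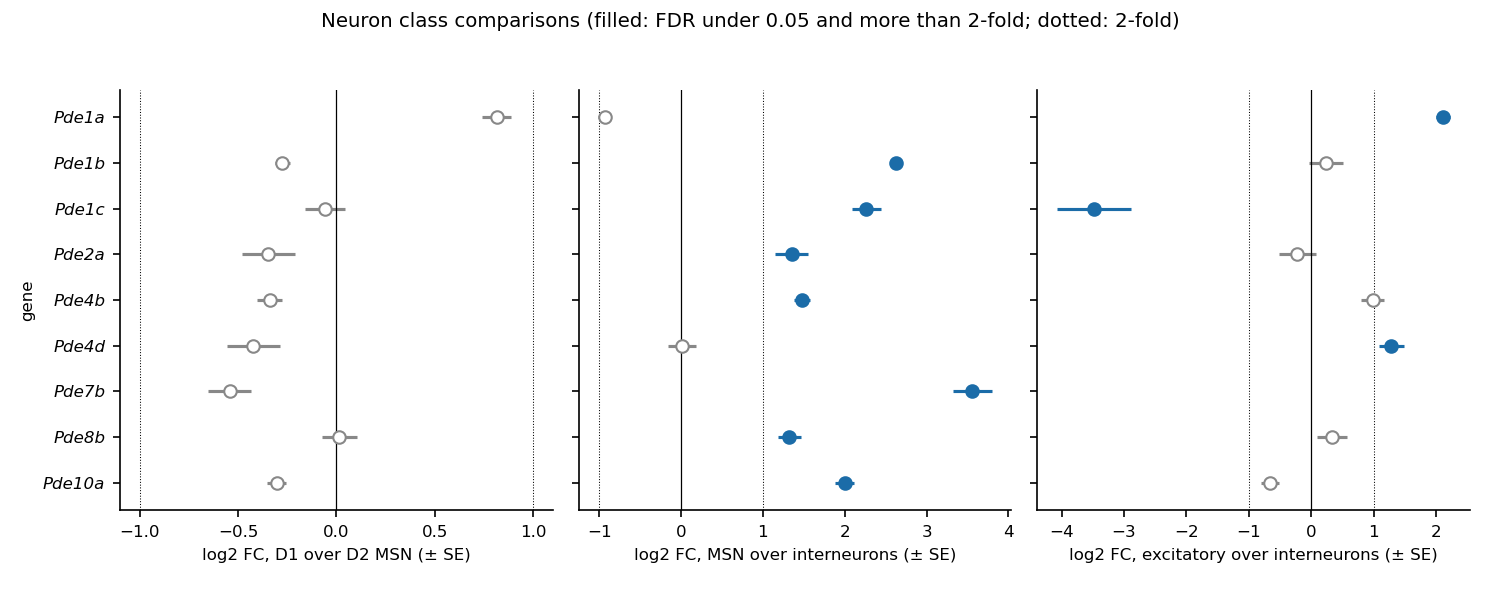
Log2 FC (x axis, ± SE) of each gene (rows) between D1 and D2 MSNs, between MSNs and striatal interneurons, and between PFC excitatory neurons and interneurons, from 4 libraries each; filled points have an FDR under 0.05 and more than 2-fold, and dotted lines mark 2-fold. No point is filled for D1 against D2 MSNs, 7 are filled on the MSN side of the second panel, and *Pde1a* and *Pde1c* lie on opposite sides of the third at 2.11 and −3.48, the latter from 24 and 22 UMIs.

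Cell types of the same name were then compared between striatum and PFC over the 8 libraries with genotype as a covariate. The authors clustered the cells of each tissue separately, so a name need not cover the same mixture of cells in both. By the study's methods the digestion time also differed between the tissues. The part of either in the differences was not tested. Among 31 tests of PDE genes in 7 shared types, 8 were called, where 2072 of 42759 tests over all genes (4.85%) were. *Pde1b* was higher in the striatum in endothelial cells (log2 FC 5.25, SE 0.67, FDR 0.000913), microglia (5.08, SE 0.62, FDR 0.000426), oligodendrocytes (4.87, SE 0.80, FDR 0.00844), and interneurons (1.83, SE 0.27, FDR 0.000299). *Pde10a* was higher in striatal microglia (3.79, SE 0.63, FDR 0.00230) and endothelial cells (1.33, SE 0.30, FDR 0.0223), and *Pde1a* in striatal interneurons (1.26, SE 0.19, FDR 0.000299). *Pde2a* was lower in striatal interneurons (−1.05, SE 0.33, FDR 0.0487).
In 5 of these 8 calls the gene reached the filter's level in the libraries of 1 tissue only, so that it entered the test through the tissue where it is high and the size of the fold is imprecise. *Pde2a* in interneurons did so through the PFC, with 41 UMIs in the striatum and 31 in the PFC. The others did so through the striatum. *Pde1b* had 5 UMIs in PFC endothelial cells, 3 in microglia, and 3 in oligodendrocytes, and *Pde10a* had 6 in microglia. As ratios of the CPM of all UMIs pooled, striatum over PFC, these 4 were 37.3 (95% exact interval 15.8 to 116), 43.3 (14.4 to 214), 28.2 (9.42 to 139), and 17.5 (7.68 to 49.2), where the intervals cover counting error only. The count of 8 calls is therefore no support for a difference of the PDE genes from other genes.
The background within a type was 4.59% of genes called in endothelial cells, 7.83% in interneurons, 16.6% in microglia, 1.79% in oligodendrocytes, 8.11% in astrocytes, 0.131% in oligodendrocyte progenitors, and 0.0663% in newly formed oligodendrocytes. No PDE gene tested was called in the last 3, but *Pde1b* was among those the filter on low counts removed there. It was at 24.8 to 87.6 CPM in striatal against 0 to 3.67 CPM in PFC astrocytes, at 14.1 to 59.9 against 1.5 to 5.22 CPM in progenitors, and at 5.46 to 68.8 against 0 to 5.10 CPM in newly formed oligodendrocytes, from 2, 8, and 1 UMIs in the PFC. The tissues did not overlap in these types. Without the filter *Pde1b* was called in all 3, at 4.61 (SE 0.65, FDR 1.63e-10), 3.37 (SE 0.45, FDR 7.39e-11), and 4.29 (SE 0.90, FDR 0.00127) in edgeR. With 1 library left out it passed the filter in 6 of 8 fits in astrocytes, all called. In progenitors it passed in 5 of 8, of which 4 were called. In these fits it could pass only through the striatal libraries, where it is high, so these calls add no support.
The call of *Pde10a* in endothelial cells was lost without PFC WT replicate 1 (FDR 0.105), striatal WT replicate 1 (0.0565), or striatal WT replicate 2 (0.0849). That of *Pde2a* was lost with any 1 of the 4 PFC libraries left out (0.0721 to 0.141), without the filter (0.0998), with DESeq2 (0.163), and with the replicate block (0.0558), and the gene was too low to test with any 1 of the 4 striatal libraries left out. *Pde1b* in oligodendrocytes was too low to test without striatal WT replicate 1 or 2.

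Markers of MSNs were also counted in the striatal glia and endothelial cells, as sums over each type and library and not cell by cell. *Pde1b* was at 31.4 and 65.8 CPM in WT against 19.8 and 76.5 CPM in *Setd1a*+/- striatal endothelial cells, at 21.8, 32.2, 12.0, and 62.9 CPM in oligodendrocytes, and at 143, 159, 75.9, and 89.6 CPM in microglia. The summed level of the MSN markers *Ppp1r1b* and *Rgs9* was 112, 215, 67.2, and 248 CPM in the endothelial cells, 61.6, 96.5, 40.7, and 201 CPM in the oligodendrocytes, and 613, 593, 361, and 657 CPM in the microglia, in the same order. It was 132 to 372 CPM in striatal astrocytes, 82.3 to 185 CPM in progenitors, and 5.46 to 317 CPM in newly formed oligodendrocytes. In endothelial cells and oligodendrocytes both quantities were higher in the 2 replicate 2 libraries than in the replicate 1 libraries. In microglia both were lowest in *Setd1a*+/- replicate 1, but the highest marker sum, in *Setd1a*+/- replicate 2, was beside *Pde1b* at 89.6 CPM, below both WT libraries. The marker sum in the PFC was at most 2.65 CPM in endothelial cells, 4.93 CPM in oligodendrocytes, and 10.1 CPM in microglia. *Pde1b* was also called in interneurons. There the MSN marker *Ppp1r1b* was at 53.8 to 118 CPM in the striatum against 0 to 3.31 CPM in the PFC.
Barcodes of 2 to 50 UMIs, which hold free RNA rather than a cell, had 400 to 553 CPM of *Pde1b* and 139 to 180 CPM of *Pde10a* in the striatum, and 6.43 to 38.1 CPM and 9.71 to 21.4 CPM in the PFC. Their ratio of *Pde10a* to *Pde1b* UMIs was 0.325 to 0.413 over the 4 striatal libraries. It was 0.538 in striatal oligodendrocytes (63 and 117 UMIs, 0.400 to 0.821 by library), 0.809 in microglia (76 and 94 UMIs, 0.378 to 1.67), 0.987 in endothelial cells (227 and 230 UMIs, 0.667 to 2.06), and 3.11 in astrocytes (292 and 94 UMIs, 0.674 to 6.14). In newly formed oligodendrocytes it was 0.412 (7 and 17 UMIs, 0.2 to 2), inside the range of free RNA, in progenitors 1.01 (86 and 85 UMIs, 0.439 to 3), in interneurons 0.926 (289 and 312 UMIs, 0.647 to 1.70), and in neural stem cells and neuroblasts 1.44 (39 and 27 UMIs, 1 to 2.2), against 0.595 in D1 and 0.601 in D2 MSNs. The part of free RNA in the calls was not tested.

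Between the genotypes none of the PDE genes was called in any cell type where it was tested. In PFC microglia and in striatal neural stem cells and neuroblasts none of them passed the filter on low counts, so none was tested. A call needed an FDR below 0.05 and an FC over 1.5 (PFC) or over 2 (striatum), and each test set 2 libraries against 2. Of 33 tests of PDE genes in PFC types, 0 were called, as were 0 of 51145 over all genes (0%). Of 55 in striatal types, 0 were called, against 4 of 73479 (0.00544%), all 4 in D2 MSNs (0.0397% of 10081 genes). DESeq2 also called 0 in each tissue, against 1 of 51145 (0.00196%) and 5 of 73479 (0.0068%) over all genes. With the replicate block 0 PDE genes were called again, but the calls over all genes rose to 26 (0.0508%) in the PFC and 79 (0.108%) in the striatum. At an unadjusted p under 0.05 there were 2 of 33 in the PFC, against 1.7% of all tests, and 2 of 55 in the striatum, against 2.62%. *Pde7b* in PFC oligodendrocyte progenitors, where its PFC level was highest, was too low to test.

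In the types where a gene is highest, the genotypes overlapped for most genes. They did not for *Pde10a* in PFC interneurons, *Pde2a* in PFC endothelial cells, *Pde7b* in PFC oligodendrocyte progenitors, and *Pde1a* in striatal interneurons. Where genotypes do not differ, 2 libraries still lie apart from 2 with a chance of 0.333. The share of all genes that lay apart was not counted. *Pde1a* in PFC excitatory neurons had a log2 FC of −0.13 (SE 0.23), *Pde4b* in PFC oligodendrocytes of 0.12 (SE 0.27), *Pde1b* of 0.06 (SE 0.17) in D1 and −0.04 (SE 0.18) in D2 MSNs, and *Pde10a* of 0.02 (SE 0.14) and 0.12 (SE 0.17). An interval of 2 SE around the last 4 stays inside 1.5-fold in either direction. *Pde7b* in PFC excitatory neurons was at 5.56 and 2.51 CPM in WT against 0.428 and 1.70 CPM in *Setd1a*+/- mice, lower in both (log2 FC −1.90, SE 0.77, unadjusted p = 0.0519, FDR 1.0 in edgeR). These are low levels, of which only WT replicate 1 exceeded the free RNA of *Pde7b* in the PFC (0.645 to 3.18 CPM), so the fold is imprecise. *Pde2a* in D1 MSNs was at 23.8 and 24 CPM in WT against 15.0 and 17.6 CPM in *Setd1a*+/- mice (log2 FC −0.50, SE 0.22, unadjusted p = 0.0499, FDR 1.0 in edgeR). *Pde1a* in striatal endothelial cells was at 22.3 and 23.0 CPM in WT against 34.7 and 41.9 CPM in *Setd1a*+/- mice (0.75, SE 0.27, unadjusted p = 0.0220, FDR 1.0 in edgeR). In these 3 the genotypes did not overlap, and an exact permutation test of 2 libraries against 2 cannot go below p = 0.333.

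**Figure D3:**
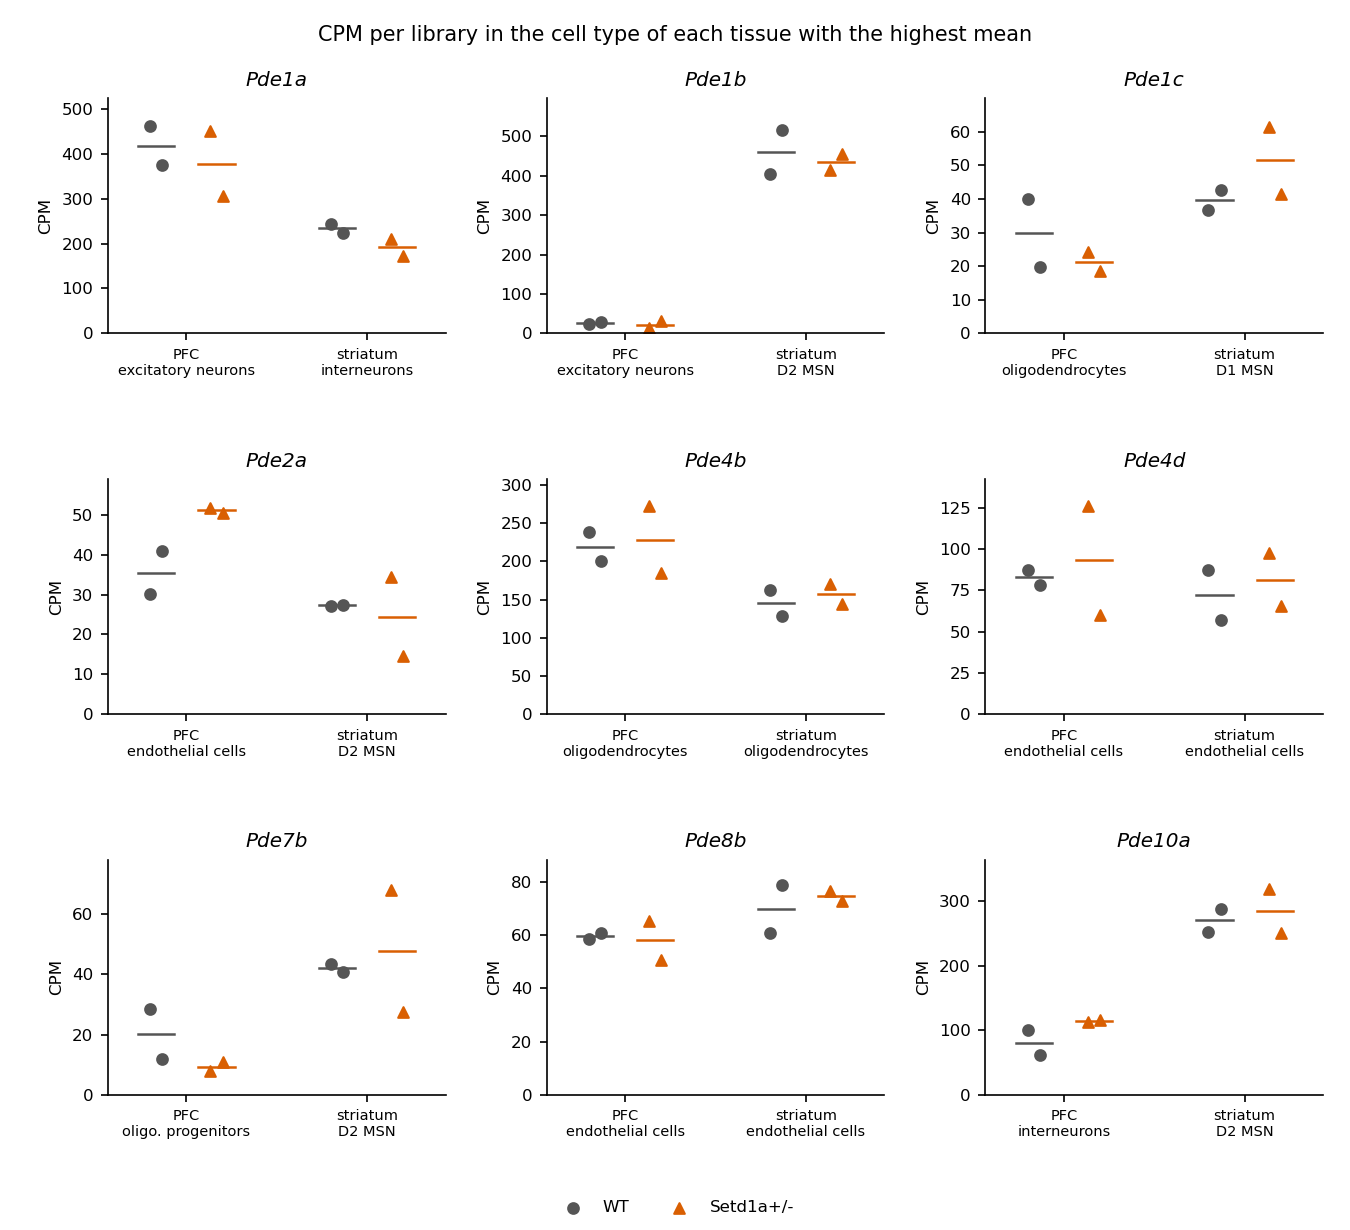
CPM (y axis, from 0) of each gene in the cell type of each tissue with its highest mean; points are single libraries, circles WT and triangles *Setd1a*+/-, and lines are means of 2. The genotypes overlap in most panels, as for *Pde10a* in D2 MSNs with 253 and 288 CPM in WT against 319 and 252 CPM in *Setd1a*+/- mice.

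*Pde10a* in PFC astrocytes had the largest log2 FC between genotypes among the tests of these genes in cell types, 2.62 (SE 0.60, unadjusted p = 0.000762, FDR 1.0 in edgeR). It was at 12.1 and 29.3 CPM in WT against 51.3 and 163 CPM in *Setd1a*+/- mice, from 5, 8, 6, and 60 UMIs, so that 1 library held most of them. A UMI was found in 5 of 187 (2.67%, 95% Wilson interval 1.15 to 6.11%) and 7 of 130 (5.38%, 2.63 to 10.7%) WT astrocytes, and in 6 of 63 (9.52%, 4.44 to 19.3%) and 43 of 174 (24.7%, 18.9 to 31.6%) *Setd1a*+/- astrocytes, with at most 4 UMIs in a cell. The call was made without the filter on low counts (2.64, FDR 0.000635), without WT replicate 2 (3.31, FDR 0.00444), and without *Setd1a*+/- replicate 1 (3.11, FDR 2.15e-07). The last 2 fits leave 1 library in a genotype, which is assumed to vary like those of the other genotype. The sum of both MSN markers in these cells was 21.7 and 25.7 CPM in WT against 25.6 and 32.5 CPM in *Setd1a*+/- mice, highest in the same library as *Pde10a*, and the free RNA of the PFC held 9.71 to 21.4 CPM of *Pde10a*. Blood markers were at 147, 11, 2657, and 29.8 CPM, highest in *Setd1a*+/- replicate 1, and the part of either marker group or of free RNA was not tested.
In striatal astrocytes *Pde10a* was at 209 and 59.1 CPM in WT against 152 and 63.7 CPM in *Setd1a*+/- mice (log2 FC −0.15, SE 0.56, FDR 0.994). Both replicate 1 libraries were above both replicate 2 libraries, with a UMI in 29.1 and 28.8% of cells against 6.54 and 19.4%. The MSN marker sum there went the other way, 163 and 132 CPM in replicate 1 and 365 and 372 CPM in replicate 2. PFC endothelial cells had 7.51 and 15.9 CPM in WT against 32.3 and 16.9 CPM in *Setd1a*+/- mice (1.33, SE 0.50, unadjusted p = 0.0298, FDR 0.999 in edgeR). Over all annotated PFC cells the log2 FC of *Pde10a* was 0.62 (SE 0.24, unadjusted p = 0.0453, FDR 1.0 in edgeR), the 1 of 9 PDE genes with an unadjusted p under 0.05, where 0.316% of genes had one. Over all striatal cells 0 of 9 had, against 0.341% of genes. Sums over all cells mix types whose shares differ between libraries. Excitatory neurons were 410 of 2623 annotated PFC cells in WT replicate 1 and 1189 of 2680 in WT replicate 2. The part of this mix in the values over all cells was not tested.

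**Figure D4:**
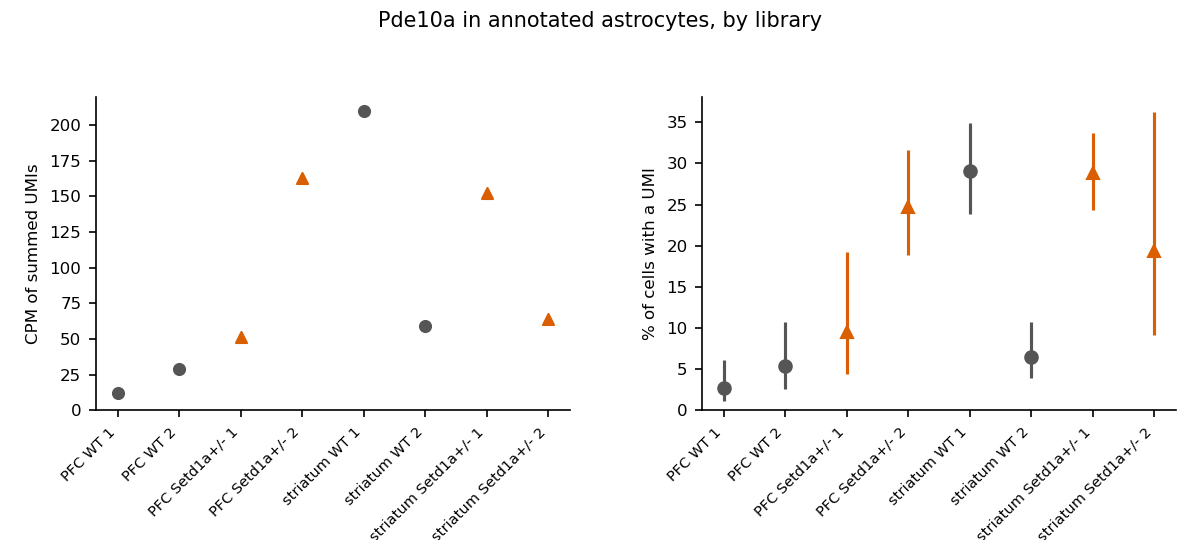
*Pde10a* in annotated astrocytes of each library (x axis): CPM of the summed UMIs on the left, and the percent of cells with a UMI, with 95% Wilson intervals, on the right. PFC *Setd1a*+/- replicate 2 stands above the other PFC libraries at 163 CPM and 24.7%, and the striatal replicate 1 libraries of both genotypes are at 209 and 152 CPM.

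In the excitatory subtypes 0 of 37 tests of PDE genes were called and 0 had an unadjusted p under 0.05, against 0% and 1.6% of 44783 tests over all genes. The log2 FCs ran from −1.0 (SE 0.62, *Pde1b* in SL-Myh7) to 0.57 (SE 0.36, *Pde10a* in DL-Foxp2). In DL-Foxp2, where *Pde1a* and *Pde4d* were highest, their log2 FCs were −0.10 (SE 0.24) and 0.42 (SE 0.32). DL-Pou3f1, with 62 cells, was too small to test.

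Whether the genotype acted differently in D1 and D2 MSNs was tested with an interaction term. None of the 9 genes was called, where 4 of 10989 genes (0.0364%) were, and 1 had an unadjusted p under 0.05, where 4.47% did. That was *Pde4d*, with a log2 FC of 0.27 (SE 0.29) in D2 and −0.32 (SE 0.32) in D1 MSNs and a difference of 0.63 (SE 0.28, unadjusted p = 0.0276, FDR 0.999 in edgeR). For *Pde1b* the difference was −0.11 (SE 0.08), and for *Pde10a* 0.06 (SE 0.10).

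**Figure D5:**
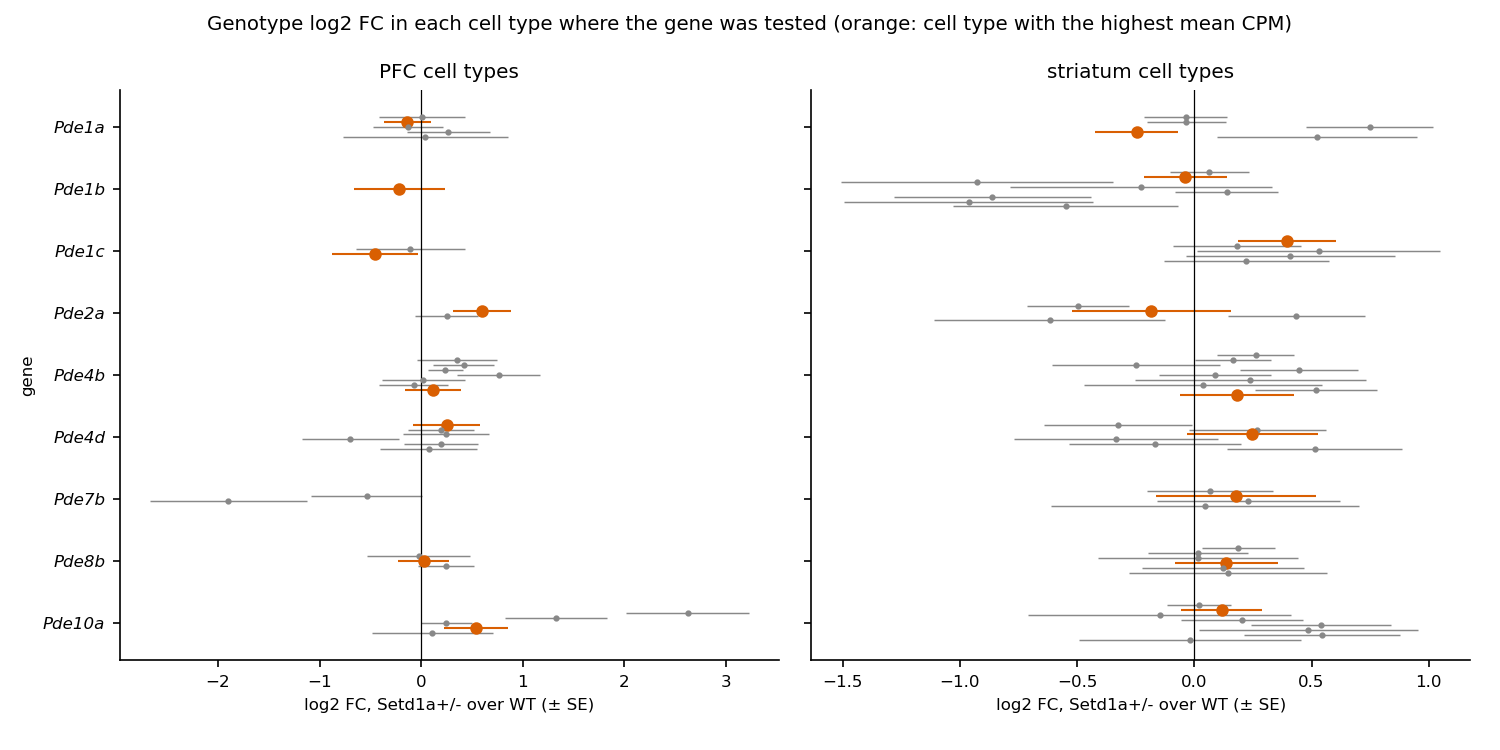
Log2 FC of *Setd1a*+/- over WT (x axis, ± SE) for each gene (rows) in each cell type of the PFC and the striatum where it was tested; orange points mark the cell type with the gene's highest mean CPM. No test passed its FDR, and the point farthest to the right is *Pde10a* in PFC astrocytes at 2.62.

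Of the rest of the pathway no gene was called between genotypes, where 0.00544% of all tests in striatal types and 0% in PFC types were, so these counts do not set the lists apart from other genes. Over the striatal types 0 of 36 tests of other PDE genes, 24 of adenylyl cyclases, 24 of guanylyl cyclases, 68 of effectors, 85 of G proteins, and 99 of kinase targets and scaffolds were called, and over the PFC types 0 of 26, 15, 16, 47, 57, and 65. In D1 MSNs the list medians were −0.03 to 0.08, with all genes at 0.01, and in D2 MSNs −0.17 (guanylyl cyclases) to 0.10 (G proteins), with all genes at 0.01.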

How the data were processed

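The deposited counts are raw UMI counts of each gene in each droplet barcode, made by the authors with Cell Ranger 3.0.2 on mm10 as the submitters' processing notes list them, and not normalized. The deposited tables of annotated cells hold other information, the library, cell type and subtype names that the authors gave after integration in Seurat 3.2.0, beside their counts of UMIs and genes and the percent of mitochondrial UMIs of each cell, by which the authors kept cells with at least 800 genes and at most 10%. Doublet removal is not given in the sources used here, and none was done. Each library pools 2 mice, so p-values measure the spread between pooled libraries. By the study's methods each biological replicate held 1 sample of each genotype, without saying whether these shared a day or litter. Same-numbered libraries deviated together over all annotated cells (r = 0.49 across genes in the PFC and 0.65 in the striatum), and by cell type r was 0.01 to 0.59 and 0.14 to 0.43. The tests between genotypes did not use this pairing, and the replicate block was an alternative. Gene-by-cell tables whose rows carry numbers in place of gene names were not used.

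UMIs were summed over the annotated cells of each type and library, with at least 10 cells in each library, and tested with edgeR 4.0.16 (quasi-likelihood test with TMM factors, genes kept by filterByExpr at a minimum of 10 counts, p-values adjusted over every gene of a fit by Benjamini-Hochberg) in R 4.3.3. The SE is the log2 FC divided by the root of its F. The authors' DEsingle test of cells was not run. Alternatives were library size alone, no filter, DESeq2 1.42.0, the replicate number or library as a block, each library left out, CPM without 13 mitochondrial and 101 ribosomal protein genes, and cells thinned to 1000 UMIs. The script was tested on simulated counts. Wilson intervals, from Python 3.11.15, and limits set by a count of 0 (3 counts) cover counting error only. The low PDE genes rest on few UMIs, which limits their precision. Positions are from GENCODE vM21 and promoters from RefSeq, both of GRCm38.

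The 9 genes were named in full, with up to 2 similar genes of each, and at most 3 called genes of each pathway list and comparison with the largest log2 FC. The genes, lists and tests were chosen with earlier results of these data known. Some other genes are not reported here and were left out of the lists and sums.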

Additional observations from a re-analysis of the deposited data

Results flagged for a closer look

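Each PDE gene was examined for a library far from the other 3 of its tissue, in 138 combinations of gene and cell group with at least 3 UMIs in each library. The 4 libraries hold both genotypes. In 6 combinations 1 library's gap to its nearest neighbor, over the whole range, was above Dixon's 95% critical value, and chance gives about 1 in 20. *Pde4d* in striatal microglia was at 89.6 CPM in *Setd1a*+/- replicate 2 against 12.9 to 17.9 CPM in the other libraries, from 17 UMIs in all. *Pde10a* in striatal interneurons was at 111 CPM in *Setd1a*+/- replicate 1 against 51.9 to 60.6 CPM. *Pde2a* in striatal oligodendrocyte progenitors was at 18.5 CPM in *Setd1a*+/- replicate 2 against 5.14 to 6.34 CPM, from 16 UMIs in all. *Pde1c* in striatal interneurons was at 12.3 CPM in WT replicate 2 against 8.33 to 8.62 CPM. *Pde8b* in SL-Cux2 neurons was at 31.8 CPM in WT replicate 1 against 51.3 to 54.2 CPM. *Pde2a* in PFC interneurons was at 17.9 CPM in WT replicate 2 against 19.9 to 20 CPM, a small gap among close values.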

How the results depend on the processing

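With library size alone, DESeq2, or no library block, no count of called PDE genes moved by over 1.5 times. Without the filter on low counts, calls between PFC genotypes went from 0 of 33 to 1 of 71 tests of PDE genes, and over all genes from 0 to 63 of 120054 tests (0.0525%). Calls between tissues went from 8 of 31 to 14 of 63 tests, and over all genes from 2072 to 5538 of 112942 (4.9%). Gained besides *Pde1b* were *Pde10a* in astrocytes (log2 FC 1.13) and oligodendrocytes (2.24). Also gained was *Pde1c* in endothelial cells (4.53) and microglia (2.75), from 1 and 2 UMIs in the PFC. *Pde10a* in astrocytes moved to 2.29 without PFC *Setd1a*+/- replicate 2. With library size alone 3 log2 FCs near 0 changed sign: *Pde8b* between genotypes in PFC endothelial cells from 0.03 to −0.0098, *Pde1c* between D1 and D2 MSNs from −0.06 to 0.015, and *Pde4d* between MSNs and interneurons from 0.01 to −0.060. The cause was not tested. With 1 library left out, a genotype within a tissue is left with 1 library, which is assumed to vary like the others of the fit. PDE calls then ranged from 0 to 1 between PFC genotypes, 0 to 1 between striatal genotypes (*Pde1b* in endothelial cells, −1.25, edgeR FDR 0.00944 without *Setd1a*+/- replicate 2), and 5 to 11 between tissues (lowest without striatal WT replicate 1 or 2, highest without PFC WT replicate 2). Over all genes 25 to 122 tests (0.0453 to 0.212%), 67 to 402 (0.0828 to 0.518%), and 1478 to 3294 (3.47 to 7.09%) were called in these fits. In both of the lowest, 1 of the 8 calls was lost in the test and 2 genes were too low to test. These log2 FCs between genotypes took both signs in that case, in the PFC *Pde4d* (−0.37 to 0.60) and *Pde8b* (−0.14 to 0.14) in endothelial cells, *Pde1a* (−0.39 to 0.081) and *Pde1b* (−1.0 to 0.30) in excitatory neurons, and *Pde1c* (−0.82 to 0.17) and *Pde4b* (−0.16 to 0.34) in oligodendrocytes. In the striatum they were *Pde10a* (−0.032 to 0.26), *Pde1b* (−0.21 to 0.16), *Pde2a* (−0.83 to 0.35), and *Pde7b* (−0.53 to 0.71) in D2 MSNs, *Pde4d* (−0.12 to 0.59) and *Pde8b* (−0.031 to 0.32) in endothelial cells, and *Pde4b* (−0.065 to 0.36) in oligodendrocytes. Between neuron classes they were *Pde1c* (−0.12 to 0.044) and *Pde8b* (−0.071 to 0.093) for D1 against D2 MSNs, *Pde4d* (−0.10 to 0.17) for MSNs against interneurons, and *Pde1b* (−0.035 to 0.44) for PFC excitatory neurons against interneurons.

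Libraries of both genotypes share replicate numbers. With the replicate block, 0 PDE genes were called between genotypes in PFC types, striatal types, or subtypes, and 7 in place of 8 between tissues, where calls over all genes were 26 (0.0508%), 79 (0.108%), 11 (0.0246%), and 2399 (5.61%). The 17 log2 FCs between genotypes in the types with a gene's highest mean kept their sign and moved by at most 0.059. Genes with few UMIs are limited by depth.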
